A study of Mus musculus with 6 samples.

Results

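The 10 genes described here encode proteins that join, divide, shape and clear mitochondria. They were taken by symbol from a table of 47967 genes, and all 10 were found and passed the filter on low counts. They are the fusion genes Mfn1, Mfn2 and Opa1, the protease gene Oma1, the fission genes Dnm1l, Mff and Fis1, the cristae gene Immt, and the mitophagy genes Pink1 and Fundc1. RNA was sequenced from a calf muscle, the gastrocnemius, in male C57BL/6 mice aged 20 to 24 weeks. The high phosphate diet held 2.0% inorganic and 2.3% total phosphate, and the normal phosphate diet held 0.6% inorganic and 0.9% total phosphate. Each diet was eaten for 12 weeks and had 3 libraries, and both diets had the same mineral content otherwise, with calcium at 1.9%, sodium at 0.9%, magnesium at 0.3% and potassium at 1.8%. The labels do not say that each library came from its own mouse, so p-values measure the spread between these libraries, which may be technical.

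Mitochondria form a network that is remodelled by fusion and fission. Mitofusins on the outer membrane and OPA1 on the inner membrane are GTPases that fuse mitochondria, and the dynamin-related GTPase DRP1, the product of Dnm1l, constricts and divides them after recruitment by adaptors such as MFF. Stress activates the inner membrane protease OMA1, which cleaves OPA1 and so limits fusion. Damaged pieces are removed by mitophagy, either through the kinase PINK1, which marks depolarised mitochondria for the ubiquitin ligase Parkin, or through receptors such as FUNDC1 that bind the autophagy machinery directly. In skeletal muscle of mice, loss of the mitofusins is known to deplete mitochondrial DNA and to impair exercise.

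The promoters of the 10 genes were read first, as a description. Whether their motifs relate to the changes given below was not tested. RefSeq windows on GRCm38.p6, running from 250 bases before to 50 after a transcription start, were found for all 10 genes, in 15 windows. The site of NRF1, a transcription factor of nuclear genes for mitochondrial proteins, was searched as GCGCANGCG on both strands. It occurred in windows of 4 of the 10 genes, Opa1, Oma1, Immt and Pink1, and in windows of 7.03% of 27025 genes. The ETS family site CCGGAAG, which the mitochondrial regulator GABP also binds, occurred in windows of Mfn1, Dnm1l, Fis1 and Immt, against 9.93% of all genes. The letters TCAAGGTCA (estrogen-related receptors, in 0.466% of all genes), TGTTTAC (FoxO, 4.05%), AAGATGGCG (YY1, 1.64%) and CACGTG (E-box, 8.09%) were in no window of the 10 genes. GC content was 49.0% to 70.3% in the 15 windows, with a median of 52.7% over all windows, and GC-rich motifs are more likely in GC-rich windows. The 27025 genes had 32851 windows and were not limited to genes tested in this muscle. The 10 genes had more windows per gene, which also makes a match more likely. A match describes letters in these windows and is not evidence of binding.

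The 150 bases before the start of the 4 genes with NRF1 letters are shown on the strand of the gene, with NRF1 or ETS matches in capitals. They lie at chr16:29579184-29579333 (Opa1, plus strand), chr4:103313696-103313845 (Oma1, plus strand), chr6:71831170-71831319 (Immt, plus strand) and chr4:138326297-138326446 (Pink1, minus strand).
Opa1: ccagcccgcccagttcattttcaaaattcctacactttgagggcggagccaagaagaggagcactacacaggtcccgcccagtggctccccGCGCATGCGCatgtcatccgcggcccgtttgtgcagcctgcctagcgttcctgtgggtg
Oma1: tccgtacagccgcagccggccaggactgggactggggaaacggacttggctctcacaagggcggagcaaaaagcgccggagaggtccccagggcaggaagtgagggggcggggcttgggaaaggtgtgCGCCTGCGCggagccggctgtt
Immt: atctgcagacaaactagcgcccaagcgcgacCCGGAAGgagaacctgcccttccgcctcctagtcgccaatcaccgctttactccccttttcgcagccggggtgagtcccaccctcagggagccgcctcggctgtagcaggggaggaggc
Pink1: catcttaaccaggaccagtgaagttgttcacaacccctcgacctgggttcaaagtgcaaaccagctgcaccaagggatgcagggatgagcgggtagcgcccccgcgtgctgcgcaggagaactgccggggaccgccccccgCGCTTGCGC

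In Opa1 the NRF1 letters read on both strands at once, in matches that begin 59 and 58 bases before the start and overlap. The match of Oma1 begins 22 bases before the start and that of Pink1 9 bases before it. Immt carries an ETS match 119 bases before the start, while its NRF1 match and its other ETS match begin 2 and 27 bases after the start, outside the stretch shown. The genes with the NRF1 letters fell on both sides of the test described next, since Opa1, Oma1 and Immt were called higher and Pink1 was not called.

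Relative to a typical gene, 6 of the 10 genes rose on the high phosphate diet: Mfn2, Mfn1, Opa1, Oma1, Immt and Dnm1l. The other 4, Pink1, Mff, Fundc1 and Fis1, were not called, although their fitted changes were also positive. The gain was largest for the mitofusin Mfn2, whose level was 1.74-fold higher. A gene was called at a Benjamini-Hochberg adjusted p under 0.05 in edgeR's quasi-likelihood test, with counts scaled between libraries by TMM, which sets the typical gene to no change. In that test 49.3% of 15347 genes were called, 23% higher and 26.3% lower, so calls were common in these libraries. The median log2 fold change, high over normal phosphate, was 0.47 over the 10 genes and -0.016 over all genes tested.

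How the libraries are scaled decides most of these calls. The high phosphate libraries held 27474251, 22560360 and 21856006 gene counts (replicates 1 to 3), and the normal phosphate libraries 23722802, 21968552 and 23670055. TMM factors averaged 0.849 ± 0.0473 on the high phosphate diet and 1.18 ± 0.0955 on the normal phosphate diet (SD, n = 3 each). The 10 most abundant genes of a library took 21.5% to 24.0% of its counts on the high phosphate diet and 13.0% to 16.2% on the normal phosphate diet. With counts scaled by library size alone, the median of all genes moved to -0.49, a shift of 0.476, and the median of the 10 genes to 0.00088. On that scale 1 of the 10 genes, Mfn2, was called higher, where 5.72% of all genes tested were called higher and 51.4% lower. The summed level of the 10 genes, in CPM (the count scaled to a common library total), was 2559 to 2614 on the high and 2201 to 2648 on the normal phosphate diet, so these sums overlapped.

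**Figure D1:**
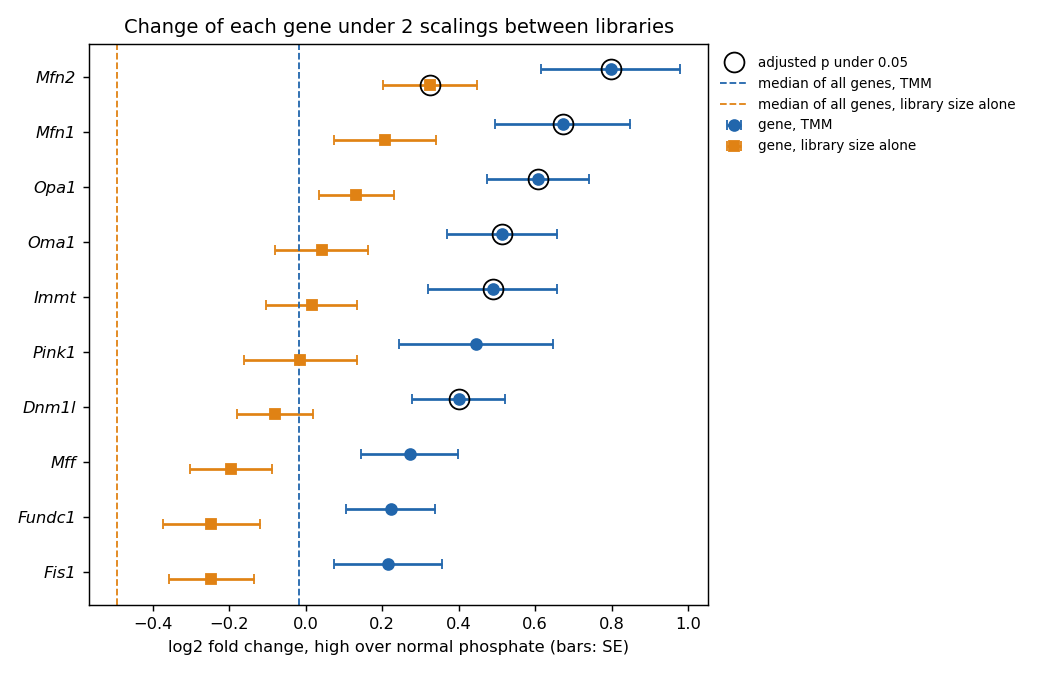
Log2 fold change (high over normal phosphate) of each gene with its SE, under TMM (blue circles) and under library size alone (orange squares), with a ring where the adjusted p was under 0.05 and dashed lines at the median of all genes on each scale. Under TMM 6 genes are ringed and under library size alone only Mfn2 is. The genes keep the same order on both scales, since a change of scaling moves all genes nearly alike.

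The order of the 10 changes was the same under both scalings. Of all genes tested, 7.85% had a larger log2 fold change than Mfn2 under TMM and 7.92% under library size alone. For Mfn1 these shares were 11.1% and 11%, for Opa1 13.3% and 13.5%, and for Fis1, the lowest of the 10, 35.3% and 34.5%. All 10 genes stood above the median gene on both scales. A change of scaling moves the log2 fold changes of all genes by nearly the same amount. The kept order and the place against the median were thus largely fixed in advance, and the second scale gives no separate support.

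The diets differed widely beyond these genes. Expressed in TMM-normalized CPM, 62.4% of all genes tested had diets that did not overlap. The diets separated on the first principal component, which carried 77.3% of the variance. Replicate 2 of the normal phosphate diet lay apart from the rest of its diet on that component, at 75.4 against 36.5 and 43.8. Beside the marker calls that follow, 23% of all genes tested were called higher and 26.3% lower under TMM. The marker sums are in CPM by library size, a scale on which 5.72% of all genes tested were called higher and 51.4% lower. Summed levels of cell type markers, in CPM, were lower on the high phosphate diet for white adipocytes (7 of 7 genes called lower under TMM, sums of 439 to 828, against 2879 to 3434 on the normal phosphate diet), fibroblasts (6 of 6 called lower, 1702 to 2094 against 4879.7 to 12938), macrophages (6 of 7 called lower and 1 higher, 169 to 243 against 451 to 975), endothelium (5 of 5 called lower, 303 to 463 against 723 to 999.8), pericytes and smooth muscle (2 of 5 called lower, 564 to 886 against 1336 to 1679), B cells (5 of 5 called lower, 0.764 to 1.6 against 9.91 to 72.2) and T cells (5 of 5 called lower, 0.503 to 1.15 against 8.01 to 33.1). Slow fibre markers (5 of 6 called lower) summed to 595 to 883 CPM on the high and 1932 to 2737 CPM on the normal phosphate diet. Fast fibre markers (5 of 7 called higher, 80226 to 103900 against 44071 to 56715) and general skeletal muscle markers (3 of 6 called higher, 58663 to 60318 against 32906 to 41829) had higher sums on the high phosphate diet. Their other genes, named after their values were seen, overlapped in CPM. Means in CPM by library size on the high against the normal phosphate diet were 2701 against 3040 for Mb, 651 against 887 for Actn2 and 14.8 against 17.8 for Myod1. Under TMM the log2 fold changes of Mb, Actn2 and Myod1 were positive, at 0.29, 0.023 and 0.20, and were not called. Among fast fibre markers the CPM means were 11666 against 12349 for Pvalb and 1482 against 1398 for Myh1. Under TMM the log2 fold changes of Pvalb and Myh1 were 0.39 and 0.58, also not called. Schwann cell markers (0 of 5 called, 121 to 194 against 141 to 209) overlapped. Of 3 brown adipocyte markers, Ucp1 and Elovl3 fell under the filter on low counts, and the 3 summed to 0.366 to 0.665 CPM on the high and 0.885 to 1.78 CPM on the normal phosphate diet. No marker list had a gene at 0 in all libraries. In bulk RNA, fewer cells of a type and less RNA per cell cannot be told apart, and the part of these shifts in the results on the 10 genes was not tested.

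Mfn2 (chr4:147873599-147904704, minus strand, GENCODE M21 on GRCm38) encodes mitofusin 2, which fuses outer membranes and also tethers mitochondria to the endoplasmic reticulum. Its levels were 836, 666 and 648 TMM-normalized CPM in the high phosphate libraries (replicates 1 to 3), against 461, 343 and 433 in the normal phosphate libraries. Every high phosphate library lay above every normal phosphate library, and replicate 1 was highest in both diets. The log2 fold change was 0.80 ± 0.18 (SE; edgeR adjusted p = 0.00642). In CPM by library size the values were 664, 579.5 and 571 on the high phosphate diet and 507, 441 and 499.8 on the normal phosphate diet, again without overlap, a difference of 0.32 ± 0.12 in log2 (edgeR adjusted p = 0.047). By library size 68.3% of all genes tested had diets that did not overlap. On the authors' FPKM values the same gene missed the threshold, at 0.30 in log2(FPKM + 1) (limma adjusted p = 0.0695). FPKM divided by CPM by library size differed between libraries up to 1.05-fold for Mfn2 and 1.10-fold for Mfn1. It differed most for Mff (1.70-fold) and Opa1 (1.28-fold). FPKM values thus largely keep the scaling by library size, and a call lost on both is not a separate check.

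Its paralog Mfn1 (chr3:32529465-32579239, plus strand), which encodes the mitofusin with the stronger tethering activity in fusion, was at 259, 251 and 207 TMM-normalized CPM on the high phosphate diet, against 172, 114 and 165 on the normal phosphate diet. The diets did not overlap, and replicate 2 of the normal phosphate diet was the lowest library. Mfn1 rose by 0.67 ± 0.18 on the log2 scale (edgeR adjusted p = 0.0123). The call was lost under library size alone (0.21, edgeR adjusted p = 0.208) and with log2(FPKM + 1) values (0.14, limma adjusted p = 0.383).

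Opa1 (chr16:29579334-29654884, plus strand), the inner membrane fusion GTPase that also holds cristae junctions tight, was at 171, 142 and 141 TMM-normalized CPM on the high phosphate diet and at 105, 86.7 and 106 on the normal phosphate diet. The lowest high phosphate library stood well above the highest normal phosphate library. The log2 fold change was 0.61 ± 0.13 (edgeR adjusted p = 0.00542), the smallest p of the 10 genes. It missed the threshold under library size alone (0.13, edgeR adjusted p = 0.272) and with log2(FPKM + 1) values (0.17, limma adjusted p = 0.298). In CPM by library size the diets still did not overlap, at 136, 123 and 124 on the high against 116, 111 and 122 on the normal phosphate diet, with a gap much narrower than under TMM.

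Oma1 (chr4:103313812-103371868, plus strand), which encodes the stress-activated protease that cleaves OPA1, was the least abundant of the 10 by count. It had 33.2, 28.5 and 26.7 TMM-normalized CPM on the high phosphate diet, against 23.2, 16.8 and 22.0 on the normal phosphate diet, and the diets did not overlap. Oma1 rose by 0.51 ± 0.14 on the log2 scale (edgeR adjusted p = 0.0157). Without high phosphate replicate 1, its highest library, the call was lost (0.43, edgeR adjusted p = 0.0582), and it was lost under library size alone (0.042, edgeR adjusted p = 0.78) and with log2(FPKM + 1) values (0.070, limma adjusted p = 0.609).

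**Figure D2:**
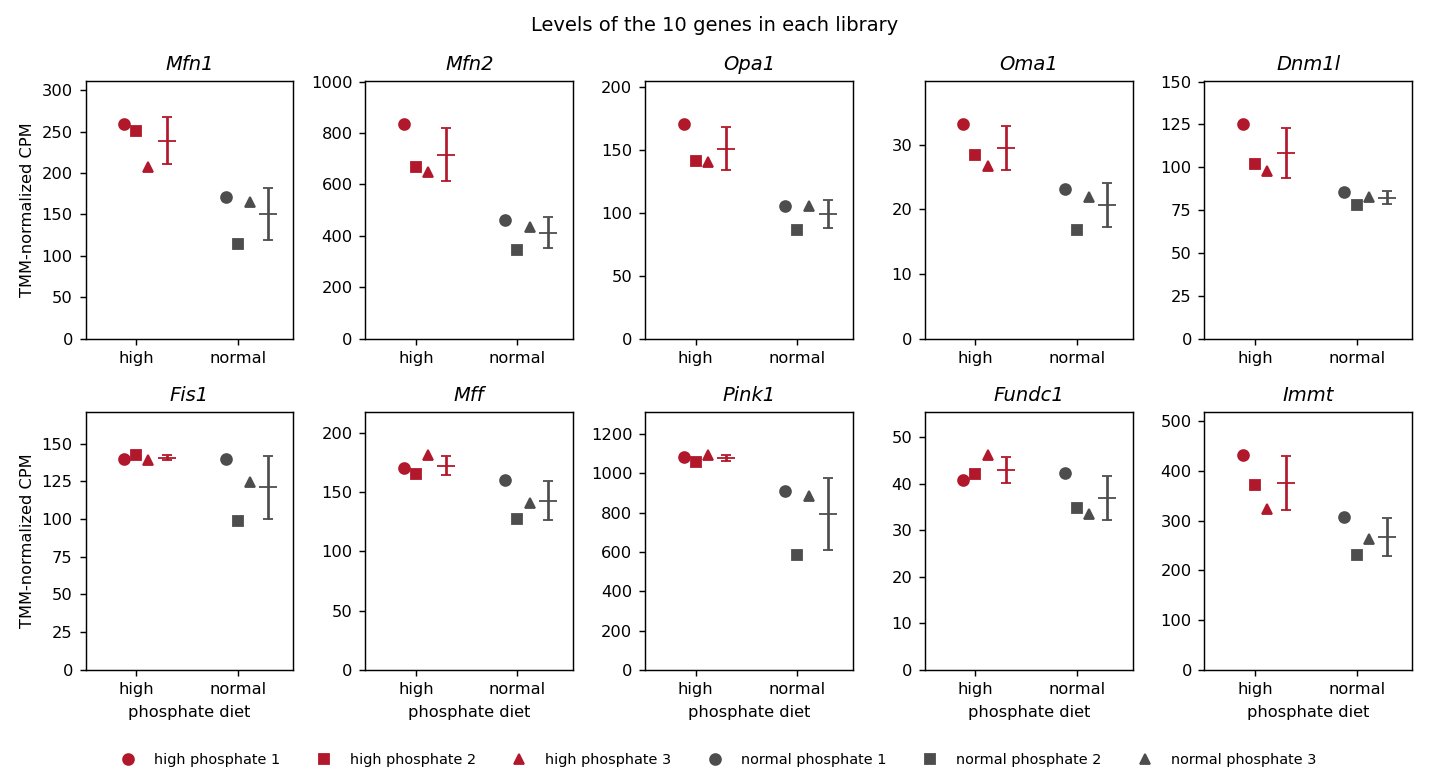
TMM-normalized CPM of each gene in each library on the high (red) and normal (grey) phosphate diets, with the mean and SD (n = 3) beside the points and every axis starting at 0. The diets do not overlap in 8 genes, beside 62.4% of all genes tested on this scale. In Fis1 and Fundc1 the highest normal phosphate library reaches into the high phosphate range.

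Immt (chr6:71831331-71877388, plus strand) encodes mitofilin, the core subunit of MICOS, the complex that forms the junctions between cristae and the inner boundary membrane. It was at 432, 371 and 323 TMM-normalized CPM on the high phosphate diet and at 308, 231 and 263 on the normal phosphate diet. The diets did not overlap, but the gap between 323 and 308 was small. Immt rose by 0.49 ± 0.17 on the log2 scale (edgeR adjusted p = 0.0373), and the call was lost without high phosphate replicate 1 (0.39, edgeR adjusted p = 0.126) or replicate 2 (0.51, 0.0807), without normal phosphate replicate 2 (0.39, 0.0605) or replicate 3 (0.47, 0.0961), and under library size alone (0.016, 0.919). With log2(FPKM + 1) values Immt was at 0.15 (limma adjusted p = 0.369). Of its exonic bases, 1.63% lie opposite the antisense gene Gm44771.

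Of the 3 fission genes, Dnm1l was called and Mff and Fis1 were not. Dnm1l (chr16:16312230-16358959, minus strand), which encodes the GTPase DRP1, was at 125, 102 and 98.1 TMM-normalized CPM on the high phosphate diet, against 85.7, 78.2 and 82.6 on the normal phosphate diet, with no overlap. Its log2 fold change of 0.40 ± 0.12 passed the test (edgeR adjusted p = 0.0227), but its sign turned under library size alone (-0.080, edgeR adjusted p = 0.506) and with log2(FPKM + 1) values (-0.053, limma adjusted p = 0.692). The call was also lost without high phosphate replicate 1 (0.30, edgeR adjusted p = 0.0747) or normal phosphate replicate 3 (0.40, edgeR adjusted p = 0.0568). Of the exonic bases of Dnm1l, 4.67% lie opposite the antisense gene Gm49521, and since no strand setting is given, reads of the pair cannot be told apart there.

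Mff (chr1:82724890-82752394, plus strand), the adaptor that recruits DRP1 to the outer membrane, was at 171, 165 and 181 TMM-normalized CPM on the high phosphate diet and at 160.3, 127 and 141 on the normal phosphate diet. The diets did not overlap on this scale, yet Mff was not called (log2 fold change 0.27 ± 0.13, edgeR adjusted p = 0.103). In CPM by library size the order was turned round, again without overlap, with 136, 144 and 159.9 on the high and 176, 163 and 163 on the normal phosphate diet (-0.20, edgeR adjusted p = 0.141). Of the exonic bases of Mff, 2.00% lie opposite the antisense gene C430014B12Rik. Without normal phosphate replicate 1 Mff was called higher under TMM (0.37, edgeR adjusted p = 0.0479).

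Fis1 (chr5:136953275-136966234, plus strand) encodes a tail-anchored outer membrane protein that was first tied to fission in yeast. Its high phosphate libraries were nearly level at 139.9, 142 and 139 TMM-normalized CPM, and its normal phosphate libraries spread over 139.9, 98.3 and 125. The diets overlapped and the gene was not called (0.22 ± 0.14, edgeR adjusted p = 0.226). The value was 0.086 without normal phosphate replicate 2 (edgeR adjusted p = 0.511) and 0.34 without normal phosphate replicate 1 (edgeR adjusted p = 0.076). By library size Fis1 had 111, 124 and 123 CPM on the high and 154, 126 and 144 CPM on the normal phosphate diet, every high phosphate library now below every normal phosphate one, and it was again not called (-0.25 ± 0.11, edgeR adjusted p = 0.0831). Mff and Fis1 were thus fitted above the normal phosphate diet on one scale and below it on the other, and passed the test on neither.

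The mitophagy genes were not called in either direction. Pink1 (chr4:138313409-138326307, minus strand), the kinase that starts Parkin-dependent mitophagy, was at 1083, 1060.3 and 1094 TMM-normalized CPM on the high phosphate diet, against 909.9, 582 and 885 on the normal phosphate diet. The high phosphate libraries were close together and all above the normal phosphate libraries, which were spread out by the low replicate 2. The log2 fold change was 0.45 ± 0.20 (edgeR adjusted p = 0.0941) under TMM and -0.014 ± 0.15 (edgeR adjusted p = 0.943) under library size alone, and DESeq2 called the gene higher (0.46, DESeq2 adjusted p = 0.0232). Without normal phosphate replicate 2 the TMM value was 0.27 (edgeR adjusted p = 0.118). Of the exonic bases of Pink1, 6.70% are also annotated to the small RNA genes Gm27646 and Mir7019 on the same strand.

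Fundc1 (chrX:17556564-17572325, minus strand), an outer membrane mitophagy receptor known from hypoxic human cells, was at 40.8, 42.2 and 46.2 TMM-normalized CPM on the high and at 42.3, 34.9 and 33.5 on the normal phosphate diet. The diets overlapped, since normal phosphate replicate 1 lay above high phosphate replicates 1 and 2. The gene was not called (0.22 ± 0.12, edgeR adjusted p = 0.138). Under library size alone its sign was negative (-0.25, edgeR adjusted p = 0.123), but without normal phosphate replicate 1 it was called higher under TMM (0.33, edgeR adjusted p = 0.0392).

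Ratios of 2 genes counted in the same library do not depend on how libraries are scaled. For 6 ratios the mean log2 ratio was compared between diets by a two-sided exact permutation test, for which 3 libraries against 3 allow no p below 0.1. The ratio of Mfn2 to Dnm1l counts, the outer membrane fusion GTPase over the fission GTPase, was 6.67, 6.54 and 6.61 on the high phosphate diet, against 5.38, 4.39 and 5.24 on the normal phosphate diet. The high phosphate values lay within a narrow band above all normal phosphate values, 1.33-fold higher on average (exact permutation p = 0.1, adjusted over 6 ratios p = 0.3). The ratio of Opa1 to Dnm1l was 1.36, 1.39 and 1.44 on the high and 1.23, 1.11 and 1.28 on the normal phosphate diet, also without overlap and 1.16-fold higher (exact permutation p = 0.1, adjusted p = 0.3). Both differences reached the smallest p that the design allows and neither passed the threshold. Each restates the difference between 2 fold changes given above. How often ratios of other genes separate between the diets was not tested. With deposited FPKM in place of counts, the difference in the log2 ratio was 0.36 for Mfn2 to Dnm1l (exact permutation p = 0.1) and 0.24 for Opa1 to Dnm1l (exact permutation p = 0.2). These are ratios of counts without correction for transcript length, so they compare diets and not amounts of the 2 transcripts.

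**Figure D3:**
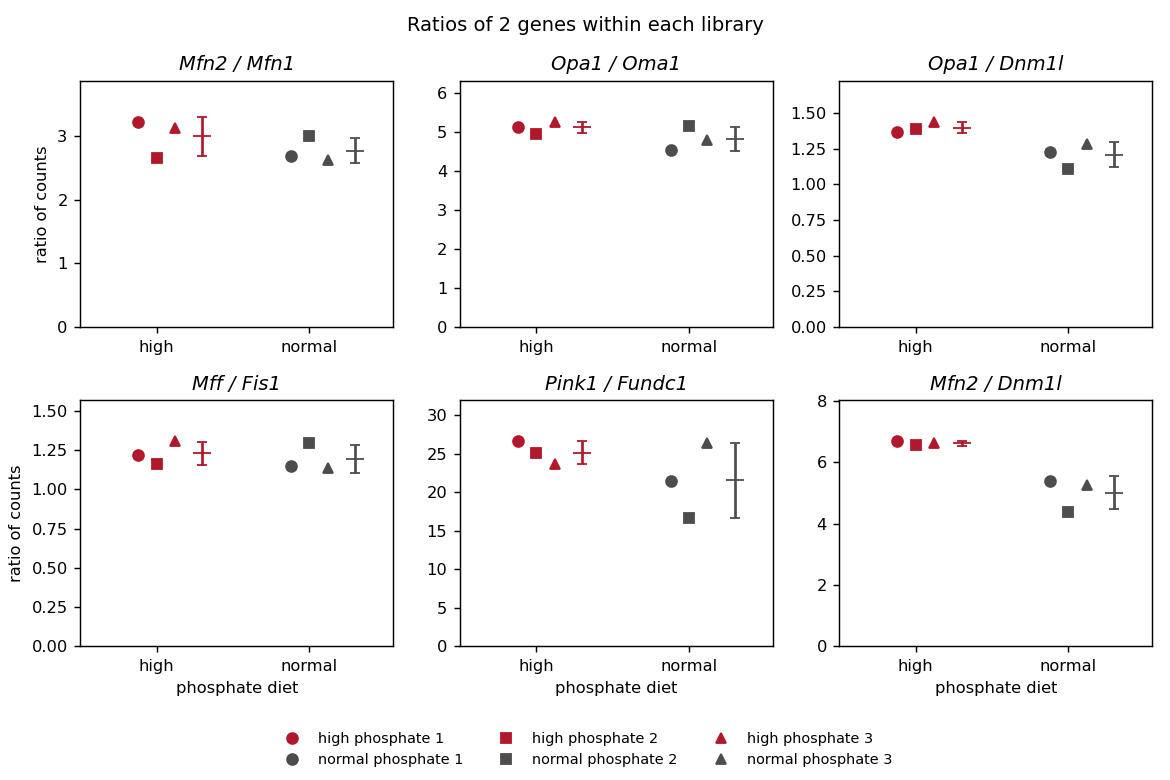
Ratio of the counts of 2 genes in each library on the high (red) and normal (grey) phosphate diets, with the mean and SD (n = 3) beside the points and axes from 0. The diets separate in the ratios of Mfn2 and of Opa1 to Dnm1l and overlap in the other 4.

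The other ratios overlapped between the diets. Mfn2 to Mfn1 averaged 3.0 ± 0.305 on the high and 2.77 ± 0.201 on the normal phosphate diet (SD, n = 3 each, exact permutation p = 0.3). Opa1 to Oma1 averaged 5.13 ± 0.149 on the high and 4.83 ± 0.309 on the normal phosphate diet (exact permutation p = 0.3). For the fission pair, Mff to Fis1 was 1.23 ± 0.0718 on the high and 1.19 ± 0.0880 on the normal phosphate diet (exact permutation p = 0.5). Pink1 to Fundc1 was 25.1 ± 1.45 on the high phosphate diet and 21.5 ± 4.85 on the normal phosphate diet (exact permutation p = 0.3), where replicate 2 stood low at 16.7. Without that library the difference in the log2 ratio of Pink1 to Fundc1 was 0.075, against 0.25 with it.

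Levels of different genes can be compared only per length, for which the deposited FPKM values were used, averaged over all 6 libraries. Pink1 was the most abundant at 310.5 FPKM, above Fis1 (127), Immt (99.0) and Mfn2 (92.4), then Mff (43.8) and Mfn1 (33.7), and then Dnm1l (17.6), Opa1 (16.7), Fundc1 (15.8) and Oma1 (9.74). Pink1 lay above Fis1 and Oma1 below Fundc1 in every library. The ranges of Fis1, Immt and Mfn2, of Mff and Mfn1, and of Dnm1l, Opa1 and Fundc1 overlapped, so their order is not settled. The FPKM of Mff are the least certain, because FPKM divided by CPM, which a fixed gene length would keep constant, differed up to 1.70-fold between libraries for Mff and up to 1.28-fold for Opa1, against 1.02-fold for Pink1.

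Genes that work with these 10 were counted by lists of the same pathways, under TMM and beside the background given above. For the counts under library size alone, the background was 5.72% of all genes tested called higher and 51.4% called lower, at a median of -0.49. Among fission and fusion factors 9 of 13 tested rose and 1 fell, with a median log2 fold change of 0.43, against 1 higher and 2 lower under library size alone. March5 (0.63 ± 0.12, edgeR adjusted p = 0.00242) and Mul1 (0.53 ± 0.11), ubiquitin ligases of the outer membrane, and Mtfr1l (0.65 ± 0.14), of a family of fission regulators, rose under TMM and were not called under library size alone (0.16, 0.055 and 0.18). Gdap1 and Inf2 were named after their values were seen. Gdap1, an outer membrane protein mutated in a human neuropathy, had 58.4 ± 15.1 TMM-normalized CPM on the high and 13.9 ± 6.55 on the normal phosphate diet (SD, n = 3 each, 2.07 ± 0.38, edgeR adjusted p = 0.00473), and also rose under library size alone (1.61, edgeR adjusted p = 0.00386). Inf2, a formin that builds actin at fission sites, was the gene that fell (-0.33 ± 0.11, edgeR adjusted p = 0.0302).

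**Figure D4:**
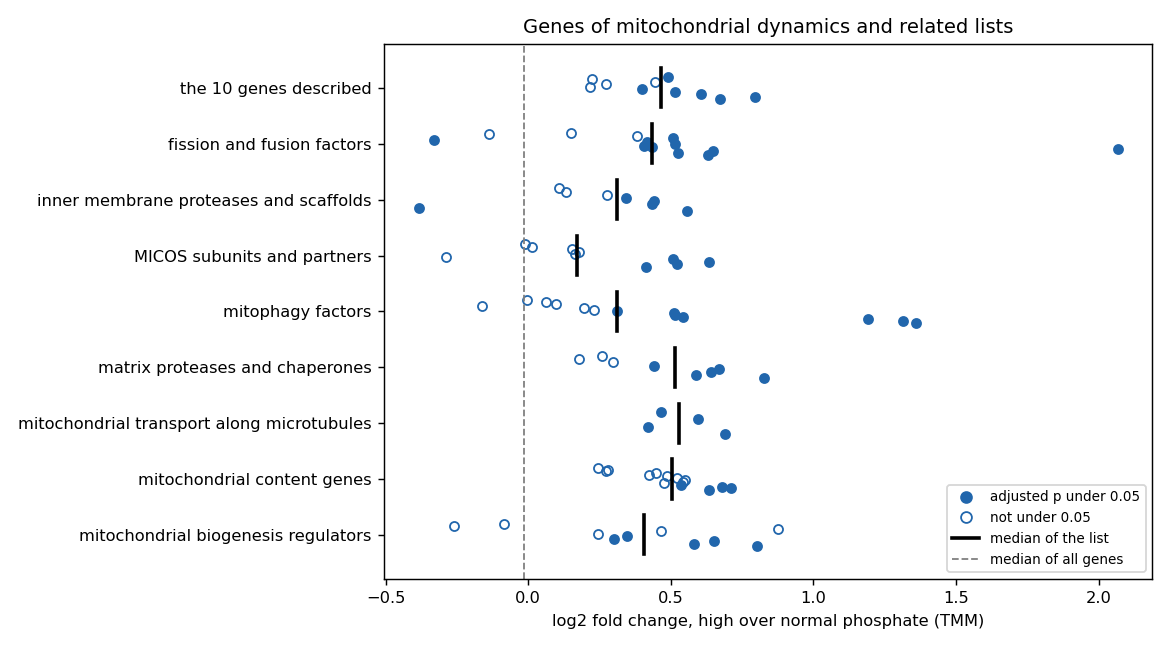
Log2 fold change (high over normal phosphate, TMM) of every tested gene in the 10 described and in 8 related lists, filled where the adjusted p was under 0.05, with a bar at each list median and a dashed line at the median of all genes. The list medians run from 0.17 to 0.53, and single genes reach 2.07 (Gdap1) and 1.36 (Fbxl4).

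Named mitophagy factors included larger changes than any of the 10 genes. Of 13 tested, 7 rose, at a median of 0.31. Under library size alone 3 were higher and 5 lower, beside 5.72% and 51.4% of all genes tested. Fbxl4, an F-box protein of mitochondria that restrains mitophagy receptors, had 58.0 ± 6.38 TMM-normalized CPM on the high and 22.6 ± 1.75 on the normal phosphate diet (SD, n = 3 each, 1.36 ± 0.12, edgeR adjusted p = 0.000191). Optn and Sqstm1, which encode adaptors between ubiquitin and autophagosomes, rose by 1.31 ± 0.15 (edgeR adjusted p = 0.000472) and 1.19 ± 0.16 (edgeR adjusted p = 0.000758). Fbxl4, Optn and Sqstm1 were also called higher under library size alone, at 0.88, 0.85 and 0.72. The other tested adaptors of this kind in the list, named after their values were seen, were Nbr1 and Tax1bp1. Nbr1 rose by 0.31 ± 0.11 under TMM (edgeR adjusted p = 0.043) and was not called under library size alone (-0.17, edgeR adjusted p = 0.207). Tax1bp1 was not called under TMM (0.20 ± 0.11, edgeR adjusted p = 0.158) and was called lower under library size alone (-0.28, edgeR adjusted p = 0.0382). Park2, which encodes Parkin, the ligase downstream of PINK1, was named after its value was seen and rose under TMM (0.51 ± 0.17, edgeR adjusted p = 0.0314) but was not called under library size alone (0.045, edgeR adjusted p = 0.832).

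Partners of Immt and Opa1 were counted in 2 lists. Of 10 MICOS subunits and partners 4 rose, at a median of 0.17. Under library size alone 4 were called lower and the median was -0.30, beside 51.4% called lower and a median of -0.49 over all genes tested. Dnajc11 (0.41 ± 0.10), the outer membrane assembly factor Samm50 (0.52 ± 0.15) and the MICOS subunit Chchd3 (0.63 ± 0.18, edgeR adjusted p = 0.0187) rose under TMM and were not called under library size alone (-0.065, 0.052 and 0.17). Of 8 inner membrane proteases and scaffolds 4 rose and 1 fell, at a median of 0.31. Under library size alone 3 were called lower, beside the same share of all genes. Afg3l2, a subunit of the matrix-facing AAA protease (0.56 ± 0.14), and the prohibitin Phb (0.44 ± 0.14) rose under TMM but not under library size alone (0.076 and -0.032), while Htra2, a protease of the intermembrane space, fell on both scales (-0.38 ± 0.11 and -0.86).

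The remaining lists described the mitochondria more broadly. Of 8 matrix proteases and chaperones 5 rose, at a median of 0.51, with Trap1 (0.83 ± 0.15), Lonp1 (0.59 ± 0.13) and Hspd1 (0.64 ± 0.15) first by p, and of these Trap1 alone was called under library size alone (0.36, edgeR adjusted p = 0.0192). All 4 genes of transport along microtubules rose (median 0.53), among them Rhot2 (0.69 ± 0.14), Rhot1 (0.42 ± 0.10) and Trak2 (0.59 ± 0.15), and under library size alone 0 of the 4 were called, at a median of 0.063 (edgeR). Mitochondrial content genes, enzymes and channels that scale with the amount of mitochondria, had a median of 0.50 under TMM and 0.034 under library size alone, close to the 0.47 and 0.00088 of the 10 genes. Of these 14 genes 4 rose under TMM and 0 were called under library size alone. Those that rose under TMM included Vdac2 (0.63 ± 0.16), citrate synthase Cs (0.71 ± 0.19) and Vdac1 (0.68 ± 0.21). Of 10 biogenesis regulators 5 rose under TMM (median 0.41), and under library size alone 1 was higher and 2 were lower (median -0.069). The smallest p under TMM were those of the mitochondrial transcription factors Tfb2m (0.80 ± 0.13) and Tfb1m (0.58 ± 0.15) and the nuclear receptor Esrra (0.65 ± 0.18). Ppargc1a, the coactivator of biogenesis, named after its value was seen, had 148 ± 82.5 TMM-normalized CPM on the high and 80.6 ± 57.3 on the normal phosphate diet and was not called (0.88 ± 0.62, edgeR adjusted p = 0.279). Nrf1, which encodes the factor whose promoter site was searched, was also named after its value was seen. It was not called under TMM (-0.085 ± 0.10, edgeR adjusted p = 0.508). Under library size alone Nrf1 was called lower (-0.57, edgeR adjusted p = 0.00463), as were 51.4% of all genes tested.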

How the data were processed

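The labels' protocols give TRIzol extraction of total RNA. The submitters' processing notes name, without roles, featureCounts 1.4.6, HISAT2 2.0.1, DESeq2 1.6.3, Trim Galore 0.4.1 and GRCm38. Strand setting and annotation release: not given in the sources used here. The authors deposited raw counts per gene and FPKM values, whose tool is not given. All 37 mitochondrially encoded genes were listed at a count of 0.

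Counts were fitted over 15347 genes (filterByExpr) with edgeR 4.0.16 in R 4.3.3, using TMM, robust quasi-likelihood F tests, diet as the single term and Benjamini-Hochberg adjustment. The SE, which is approximate, is the log2 fold change divided by the square root of F. CPM values were taken after TMM or by library size. The median SE was 0.162 over all genes and 0.142 over the 10. FPKM values of at least 0.5 in 3 libraries were tested with limma 3.58.1 on log2(FPKM + 1), and DESeq2 1.42.0 was an alternative tool. Log2 ratios had 0.5 added to each count. The fit was tested on simulated data. No library was a copy of another (18.1 to 58.0 times the sampling noise). The genes, lists and tests were chosen with earlier results of these data known. Named were the 10 genes, the 3 smallest p of each list, and genes marked as named after their values were seen.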

Additional observations from a re-analysis of the deposited data

How the results depend on the processing

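The 6 calls among the 10 genes were also made with DESeq2-style size factors, with TMM without the 50 most abundant genes or without cell type markers and immunoglobulin genes (an alternative added after the data were seen), with both other filters on low counts and with limma-voom, and DESeq2 or an adjusted p under 0.1 gave 7. Over all genes, DESeq2 called 3665 higher and 3802 lower. An adjusted p under 0.1 gave 4286 higher and 4686 lower of 15347 genes tested, against 3528 and 4035 at 0.05. Under library size alone 878 genes were higher and 7886 lower, and 1 of the 10 was higher, at a median of 0.00088. On log2(FPKM + 1), log2(FPKM + 0.1) and log2(FPKM + 1) without a filter, limma called 760, 766 and 566 genes higher and 0, 0 and 0 of the 10 (1 of the 10 at an unadjusted p under 0.05 in each), at medians of 0.041, 0.044 and 0.041. In the same order limma called 5992, 6032 and 4955 genes lower, with 15738 genes tested where the filter was used. The medians of all genes were -0.32, -0.42 and -0.082. Signs turned under library size alone for Dnm1l (-0.080), Fis1 (-0.25), Mff (-0.20), Pink1 (-0.014) and Fundc1 (-0.25). They turned on the 3 FPKM scales for Dnm1l (-0.053, -0.056, -0.053), Fis1 (-0.22, -0.22, -0.22), Mff (-0.26, -0.26, -0.26) and Fundc1 (-0.25, -0.26, -0.25). The ratio of Mff to Fis1 turned to -0.040 on the log2 scale with FPKM. FPKM divided by CPM by library size differed between libraries up to 1.70-fold for Mff. For Fis1, Dnm1l and Fundc1 it differed up to 1.06-fold, 1.04-fold and 1.08-fold, so their FPKM kept nearly the library-size scaling. Why it differed more for Mff was not tested. Leaving out 1 library gave 3 to 8 calls and medians of 0.37 to 0.58, with 3 without high phosphate replicate 1 and 8 without normal phosphate replicate 1. Calls over all genes were 2782 higher and 3370 lower without that high phosphate library. They were 3502 and 4075 without that normal phosphate library, against 3528 and 4035 with all libraries. Same-numbered libraries deviated together at correlations of only -0.0215 to 0.0223, so the numbers do not pair them, and a fit with the replicate number as a block also called 6 of the 10, at a median of 0.48. Counting error is small at these depths, so the 3 libraries per diet limit the precision.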
